A study of Sus scrofa with 30 samples.

Results

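The 63 genes here were higher in neonatal islet cell clusters (NICCs) with the TGFBR inhibitor SB431542 (SB) than in human serum albumin (HSA) alone. When albumin was replaced by fetuin-A, their mean levels stayed near HSA on the scale described below, which shrinks ratios of genes at low levels. They were picked from 25880 gene identifiers by their own levels. A gene entered when the HSA + SB mean exceeded the HSA mean at maturation d5 by at least 1 on a log2 scale and all 4 HSA + SB libraries lay above all 4 HSA libraries, when the same log2 ratio was at least 0.585 for HSA + SB + LDN over HSA + LDN, and when the log2 ratio of Fet-A over HSA stayed within 0.585 in either direction. The ratios were taken on mean CPM, the count of a gene scaled to the total of its library, with 0.5 added to each mean, and a mean of at least 1 CPM was required in at least 1 of the 6 groups. Of the 13860 identifiers with that level, 182 reached the HSA + SB limit, 104 of those had no overlap between the libraries, 96 of those passed the limit with LDN, and 63 of those stayed within the fetuin-A limit. An Ensembl identifier was paired with a gene symbol for 53 members, and 10 have no symbol.

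NICCs are clusters isolated from the pancreas of neonatal pigs, per the study's methods from German Landrace and Landrace-Yorkshire piglets aged 2 to 12 days, and they hold exocrine, duct, stromal, vascular and endocrine cells. They were cultured and then moved to a maturation medium without fetal calf serum. Libraries of the HSA/d1 group were made at culture d6, on maturation d1, with 0.6 mg/ml HSA. All other groups were collected at culture d10, on maturation d5: HSA/d5 with 0.6 mg/ml HSA, Fet-A/d5 with fetuin-A at 0.6 mg/ml in place of HSA, HSA + SB/d5 with HSA and 10 μmol/l SB431542, HSA + LDN/d5 with HSA and an agent labelled LDN, and HSA + SB + LDN/d5 with HSA and both agents. Neither the identity nor the dose of LDN is stated in the labels. Per the study, the sequenced clusters of the fetuin-A and SB comparisons came from piglets aged 4 and 12 days. Each group had 4 libraries, with no strain, piglet age or preparation of clusters tied to any of them, and p-values therefore measure the spread between these libraries. Totals ran from 18883734 to 24346119 counted reads, so that 1 CPM was about 21 reads at the median total.

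SB431542 blocks the kinase activity of the type I receptors for TGF-β and activin, so that SMAD2 and SMAD3 are not phosphorylated and SMAD target genes lose their drive. In the pancreas this pathway is known for its activation of stellate cells and matrix genes and for its restraint of growth. Fetuin-A is a plasma protein of the liver that can bind TGF-β and BMP proteins.

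The members were mostly expressed at low levels. Their median mean CPM was 1.41 in HSA/d5, against 28.48 for all genes with at least 1 CPM in a group, and 26 members had a mean under 1 CPM in HSA/d5. In HSA + SB/d5 the median of the members was 5.68 CPM, and 23 members had at least 10 CPM, compared with 13 in HSA/d5. The remaining medians were 3.08 CPM in HSA/d1, 1.35 in Fet-A/d5, 1.76 in HSA + LDN/d5 and 6.04 in HSA + SB + LDN/d5. HSA + SB/d5 was the highest of the 6 groups for 46 members, HSA + SB + LDN/d5 for 10 and HSA/d1 for 7. All 63 members passed the filter on low counts.

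The values that chose the members are given as a description only. The log2 ratio of HSA + SB over HSA had a median of 1.36 and ran from 1.03 to 2.75, and the fold of the means without an added value had a median of 3.23. For HSA + SB + LDN over HSA + LDN the log2 ratio had a median of 1.03, from 0.611 to 2.09. Fet-A over HSA ran from -0.58 to 0.56 with a median of -0.09. In the edgeR fit, 60 members passed both thresholds (adjusted p below 0.05 together with a log2 fold change beyond 1 in either direction) for HSA + SB against HSA, beside 0.916% of all 14842 genes tested, and MYH11, PNLIPRP1 and ENSSSCG00000034802 did not. For HSA + SB + LDN against HSA + LDN, 19 members passed, beside 0.243% of all genes, and 35 had no overlap between the libraries, beside 4.49% of the genes compared. Since the rule used both contrasts, nothing is read from these counts.

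**Figure D1:**
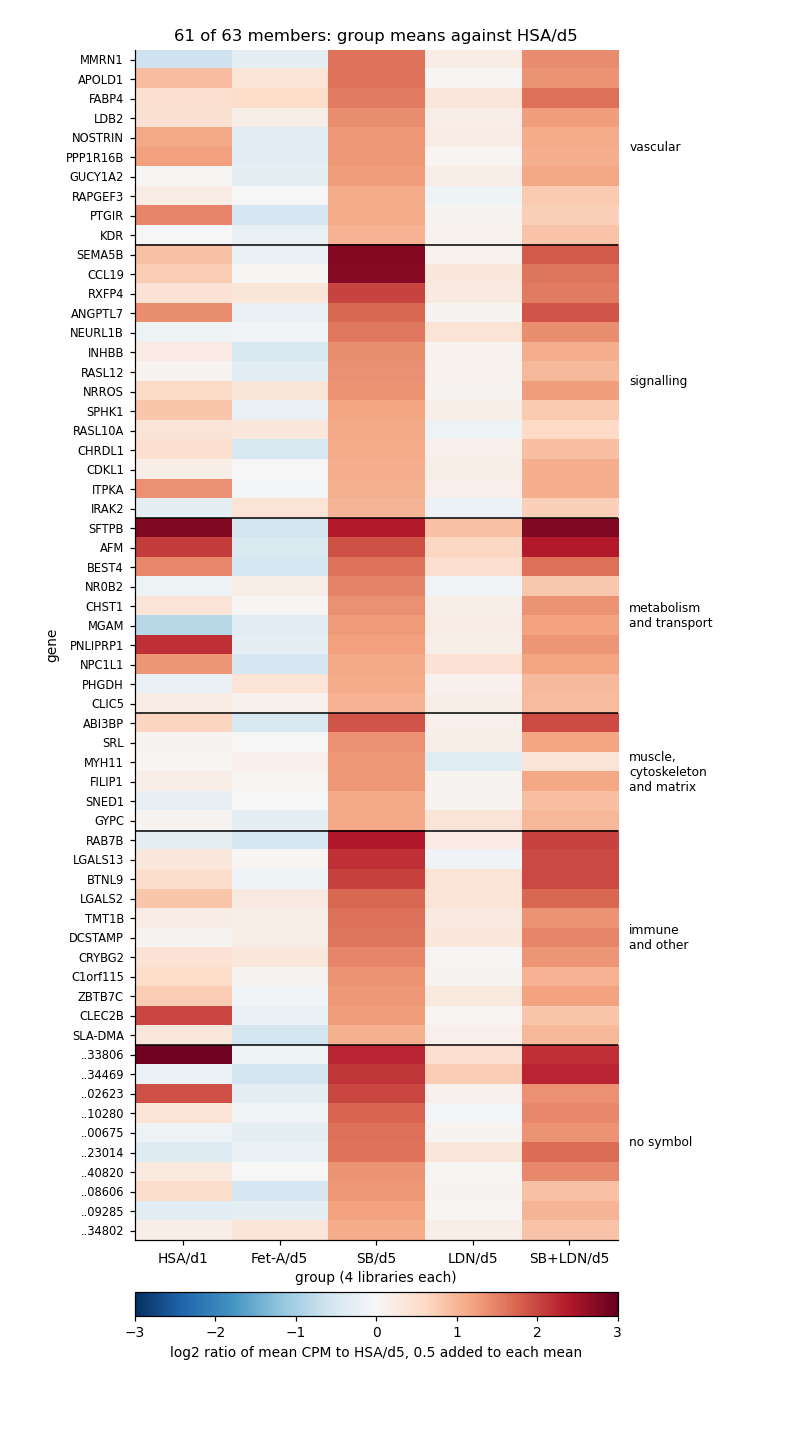
Log2 ratio of each group's mean CPM to the HSA/d5 mean (colour, 0.5 added to each mean, 4 libraries per group) for 61 of the 63 members, grouped by what their products do. The SB/d5 column is red throughout, as the rule requires, while the HSA/d1 column runs from blue for MGAM to dark red for ENSSSCG00000033806, SFTPB, PNLIPRP1 and AFM. Identifiers without a symbol are given by their last 5 digits.

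The limits of the rule passed close to several genes. IRAK2 at 1.03, KDR at 1.03 and CLIC5 at 1.04 were just inside the HSA + SB limit, and TMEM72 at 0.992 and SLCO2B1 at 0.963 just outside it. SPHK1 at 0.611, GYPC at 0.625 and PTGIR at 0.630 were just inside the limit with LDN, and SULT1A3 at 0.453, S1PR5 at 0.423 and PGM5 at 0.421 just outside. For fetuin-A, SFTPB with an absolute ratio of 0.557 and FABP4 with 0.556 were inside, and ARC at 0.598, KCNJ8 at 0.605 and FABP5 at 0.654 outside. The smallest gap between the lowest HSA + SB and the highest HSA library was 0.0777 CPM in CHRDL1, 0.0836 in AFM and 0.0920 in RAPGEF3, while in LYPD2 and TMEM100 the libraries overlapped by -0.0186 and -0.112 CPM. DCSTAMP, at 1.14 CPM in its highest group, and RASL10A, at 1.22, were nearest to the minimum level, and ALAS2, at 0.894, fell under it.

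Of the members with a symbol, 10 were grouped as vascular, although some, such as FABP4, are also known from other cells. KDR (ENSSSCG00000008844) encodes the main VEGF receptor of endothelial cells. Its CPM was 113.5, 69.5, 115.2 and 131.8 in the 4 HSA + SB/d5 libraries and 57.3, 44.4, 55.3 and 52.2 in the HSA/d5 libraries. In HSA/d1 it was 53.9, 47.9, 56.3 and 54.4, so that HSA/d1 and HSA/d5 overlapped and HSA + SB/d5 lay above both. With both agents KDR was 93.0, 56.8, 108.5 and 124.5 CPM, against 67.9, 47.9, 54.6 and 53.4 with LDN alone, and the lowest library with both agents lay within the LDN range.

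PPP1R16B (ENSSSCG00000007350), an endothelial regulatory subunit of protein phosphatase 1, had another course. It was at 88.8, 54.4, 90.7 and 53.5 CPM in HSA/d1 and at 36.8, 23.6, 28.6 and 31.7 CPM in HSA/d5. In HSA + SB/d5 it was at 88.8, 54.2, 77.3 and 82.0 CPM, which is the range of HSA/d1. The Fet-A/d5 libraries, at 25.2, 15.4, 25.2 and 29.5 CPM, overlapped HSA/d5 and lay below HSA/d1. HSA + LDN/d5 ran from 23.0 to 41.1 CPM and HSA + SB + LDN/d5 from 51.1 to 76.0 CPM, without overlap.

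The other vascular members gave smaller levels. APOLD1, an early response gene of endothelial cells, had 14.3, 10.3, 24.9 and 23.9 CPM in HSA + SB/d5, 4.73, 3.68, 7.63 and 6.44 in HSA/d5, and 11.9, 8.71, 12.2 and 12.3 in HSA/d1. LDB2, a cofactor of LIM-domain transcription factors, was at 18.7 ± 6.44 CPM (SD, n = 4) in HSA + SB/d5 and at 6.77 ± 2.33 in HSA/d5. RAPGEF3, the cAMP-activated exchange factor EPAC1, was at 9.26 ± 3.23 and 3.99 ± 0.882 CPM in these groups. Group means under 4 CPM were found for MMRN1, which encodes a carrier of factor V in platelets and endothelium, NOSTRIN, which binds endothelial nitric oxide synthase, FABP4, a fatty acid carrier of adipocytes and capillaries, GUCY1A2, a subunit of the nitric oxide receptor, and PTGIR, the prostacyclin receptor. MMRN1 was highest in a single library of HSA + SB/d5, with 8.19 CPM beside 2.15 to 2.38 in the others.

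Endothelial marker genes were set beside these members, since a larger share of vascular cells and more RNA per cell cannot be told apart in pooled clusters. The list held 13 tested genes including KDR. In HSA + SB/d5 against HSA/d5, KDR passed both thresholds upwards and PLVAP, a diaphragm protein of fenestrated capillaries, downwards with a log2 fold change of -1.06 (SE 0.302, adjusted p = 0.0379). ROBO4 passed on the adjusted p alone, at 0.83 (SE 0.248, adjusted p = 0.0471). The median log2 fold change over the list was 0.65, beside 0.00 for all genes, and 12 of the 13 values were above 0. PECAM1, the general endothelial adhesion molecule, was at 0.89 (SE 0.319), which did not pass. All 13 were detected well enough to be tested, and the summed level of the list without KDR ran from 411 to 690 CPM in HSA/d5, from 506 to 1125 CPM in HSA + SB/d5, from 191 to 527 CPM in Fet-A/d5 and from 398 to 799 CPM in HSA/d1. These ranges overlapped, with means of 535 ± 121 CPM in HSA/d5 and 776 ± 257 CPM in HSA + SB/d5 (SD, n = 4), and the HSA + SB/d5 library was above the HSA/d5 library of the same number in 4 of 4, although the numbers come from accession order alone. The part of vascular cell number in the values of these members was not tested.

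**Figure D2:**
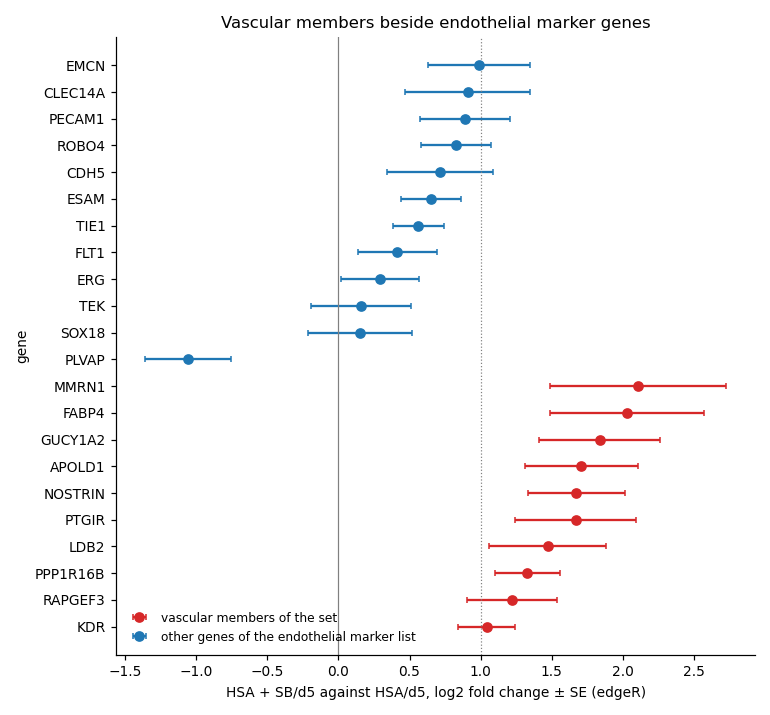
Log2 fold change of HSA + SB/d5 against HSA/d5 (horizontal axis, edgeR, bars are standard errors) for the 10 vascular members in red and the other 12 genes of the endothelial marker list in blue. The dotted line marks a log2 fold change of 1, which every red point exceeds, the members having been selected on this contrast, while of the blue points only PLVAP lies below 0, at -1.06, and EMCN and CLEC14A are the highest.

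Among the 14 members that act in signalling, several belong to the TGF-β family or its regulation. INHBB (ENSSSCG00000038610) encodes the subunit of activin B and inhibin B. It was at 44.5, 32.6, 46.6 and 63.8 CPM in HSA + SB/d5, at 17.8, 13.5, 16.1 and 22.8 CPM in HSA/d5 and at 11.4, 8.32, 13.7 and 16.4 CPM in Fet-A/d5. Levels in HSA/d1, at 21.7, 13.7, 21.5 and 26.4 CPM, overlapped those of HSA/d5, and all HSA + SB/d5 libraries were above all HSA/d1 libraries. With both agents INHBB ran from 19.7 to 56.9 CPM and with LDN alone from 13.9 to 23.1 CPM.

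CHRDL1 (ENSSSCG00000012576), a secreted antagonist of BMPs, was near the floor of the data. It had 1.52, 1.74, 0.852 and 1.53 CPM in HSA + SB/d5 and 0.774, 0.239, 0.18 and 0.314 CPM in HSA/d5, with 4 to 17 reads in the latter. NRROS, which anchors latent TGF-β1 on the cell surface, was at 4.47 ± 1.27 CPM in HSA + SB/d5 and at 1.45 ± 0.315 CPM in HSA/d5.

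SPHK1 (ENSSSCG00000017178) makes the lipid mediator sphingosine 1-phosphate. Its CPM was 482, 557.7, 462 and 404.1 in HSA + SB/d5, 185, 219.2, 236.5 and 197.8 in HSA/d5, and 330.8, 367.1, 418.5 and 378.7 in HSA/d1. The HSA/d5 libraries lay below all others except those of Fet-A/d5, at 175.2 to 200.8 CPM, and HSA + LDN/d5, at 212.7 to 281 CPM. With both agents SPHK1 was at 368.2, 395.8, 317.2 and 362.7 CPM, below every HSA + SB/d5 library and above every HSA + LDN/d5 library.

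With 0.5 CPM added to each mean, the ratios of SEMA5B and CCL19 were the largest of the set. SEMA5B (ENSSSCG00000011872), a semaphorin of axon guidance, had 6.20, 1.84, 3.64 and 3.5 CPM in HSA + SB/d5 against 0.182, 0.239, 0.0898 and 0.0524 CPM in HSA/d5, the latter from 1 to 5 reads. CCL19 (ENSSSCG00000010966), the chemokine that draws lymphocytes and dendritic cells through CCR7, had 6.00, 6.04, 3.31 and 3.35 CPM in HSA + SB/d5 and 0.0910, 0.335, 0.0898 and 0.628 CPM in HSA/d5, from 2 to 12 reads. Both were also above HSA/d1 in every library, where SEMA5B reached 1.25 CPM and CCL19 1.40 CPM. RXFP4 (ENSSSCG00000006503), the receptor of the gut hormone INSL5, had 8.01, 6.66, 3.36 and 2.66 CPM in HSA + SB/d5 and at most 1.12 CPM in HSA/d5.

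ANGPTL7, a secreted angiopoietin-like protein, was at 5.82 ± 2.43 CPM in HSA + SB/d5 and at 1.41 ± 0.852 CPM in HSA/d5, and replicate 4 was the lowest library in 6 of 6 groups. NEURL1B, a ubiquitin ligase for Notch ligands, was at 13.1 ± 4.46 and 4.06 ± 1.20 CPM. RASL12, a small GTPase of the Ras type, was at 14.5 ± 3.04 and 5.30 ± 3.10 CPM, and IRAK2, a kinase of interleukin-1 and Toll-like receptor signalling, at 13.4 ± 2.56 and 6.28 ± 1.6 CPM. The signalling members also hold ITPKA, which phosphorylates inositol trisphosphate, the kinase CDKL1 and the GTPase RASL10A.

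**Figure D3:**
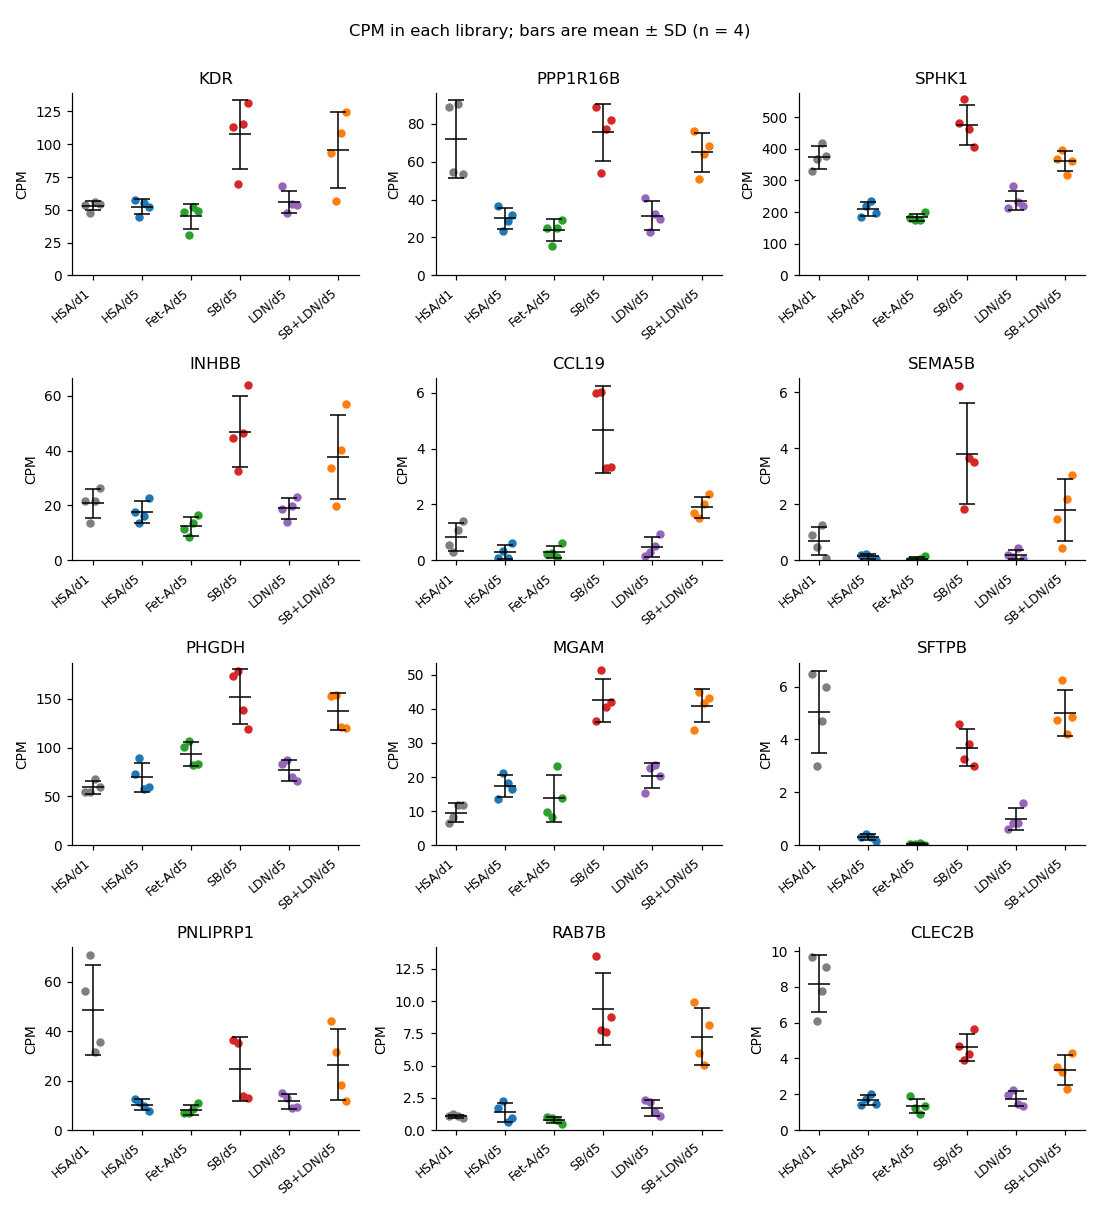
CPM of 12 members in each of the 24 libraries (points), with the mean and SD of each group of 4 as bars. HSA + SB/d5 lies above HSA/d5 in every panel by the rule, whereas the HSA/d1 level is near HSA/d5 for KDR and INHBB and near HSA + SB/d5 for PPP1R16B and SFTPB, and PNLIPRP1 and CLEC2B have their highest mean in HSA/d1.

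A group of 12 members act in metabolism and transport. PHGDH (ENSSSCG00000006717), the first enzyme of serine synthesis from glucose, was at 173.8, 178.1, 138.1 and 119.3 CPM in HSA + SB/d5 and at 72.7, 89.4, 57.3 and 59.2 CPM in HSA/d5. The Fet-A/d5 libraries had 100.3, 106.6, 82.2 and 82.9 CPM, which lay between and overlapped HSA/d5 in part. MGAM (ENSSSCG00000034639), an intestinal enzyme that frees glucose from starch, had 36.4, 51.3, 40.5 and 42.0 CPM in HSA + SB/d5, 13.5, 21.2, 18.2 and 16.4 CPM in HSA/d5, and 6.42, 8.14, 11.9 and 11.7 CPM in HSA/d1. Its libraries thus separated into HSA/d1, HSA/d5 and HSA + SB/d5 in ascending order.

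Several proteins of intestinal and hepatic lipid handling were in this group. NPC1L1 (ENSSSCG00000016746), the intestinal cholesterol transporter, was at 18.5 ± 3.30 CPM in HSA + SB/d5, 8.11 ± 1.45 in HSA/d5 and 21.1 ± 8.19 in HSA/d1. NR0B2, the bile acid-responsive nuclear receptor SHP, was at 3.60 ± 1.04 and 0.950 ± 0.495 CPM in HSA + SB/d5 and HSA/d5. PNLIPRP1 (ENSSSCG00000010659), a lipase-related protein of acinar cells, was at 36.5, 35.2, 14 and 12.9 CPM in HSA + SB/d5, at 12.6, 11.2, 9.65 and 7.59 CPM in HSA/d5 and at 56.3, 70.6, 31.5 and 35.7 CPM in HSA/d1.

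Other acinar genes varied widely between libraries. Of 17 tested genes on the acinar list, PNLIPRP1 included, 0 passed in edgeR for HSA + SB against HSA, with the adjusted p alone or with both thresholds. The median log2 fold change was 0.93, beside 0.00 for all genes, and 14 of the 17 values were above 0. The summed CPM of the list without PNLIPRP1 ran from 1193 to 12757 in HSA/d5, from 3281 to 14015 in HSA + SB/d5 and from 7491 to 27630 in HSA/d1. Its mean was 5683 ± 5014 in HSA/d5 and 9237 ± 4463 in HSA + SB/d5. Of libraries with the same number, which comes from accession order alone, HSA + SB/d5 was the higher in 4 of 4. That count was 3 of 4 for the duct marker list and 1 of 4 for the stellate cell and fibroblast list. It was 0 of 4 for the endocrine hormone, endocrine transcription factor, and Schwann and neural lists. The part of acinar cell number in the PNLIPRP1 values was not tested.

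SFTPB (ENSSSCG00000008229) and AFM (ENSSSCG00000008950) are best known from the lung and the liver, as surfactant protein B and as the vitamin E carrier afamin. SFTPB had 6.47, 3.0, 4.68 and 5.97 CPM in HSA/d1, and 0.319, 0.431, 0.314 and 0.157 CPM in HSA/d5, from 3 to 9 reads. In HSA + SB/d5 it had 4.6, 3.28, 3.83 and 3.01 CPM, within the HSA/d1 range, and in Fet-A/d5 from 0 to 2 reads. HSA + LDN/d5, at 0.627, 0.855, 0.849 and 1.59 CPM, was above all HSA/d5 libraries, and HSA + SB + LDN/d5 reached 4.73, 6.23, 4.20 and 4.86 CPM. AFM followed a like order, with 2.22, 3.58, 3.69 and 0.493 CPM in HSA + SB/d5, 0.410, 0.191, 0.359 and 0.209 CPM in HSA/d5 and 3.44, 4.70, 2.32 and 1.16 CPM in HSA/d1. BEST4, an anion channel of gut epithelium, had 3.08 ± 0.905 CPM in HSA/d1, 0.819 ± 0.281 in HSA/d5 and 3.55 ± 1.87 in HSA + SB/d5.

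The group also held CHST1, a sulfotransferase of keratan sulfate, at 48.0 ± 11.5 CPM in HSA + SB/d5 and 18.3 ± 5.50 CPM in HSA/d5. The intracellular chloride channel protein CLIC5 was at 10.5 ± 2.86 and 4.88 ± 1.01 CPM.

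Of 6 members of muscle, cytoskeleton and matrix, MYH11 (ENSSSCG00000000146), the myosin heavy chain of smooth muscle, differed widely between libraries. It was at 32.0, 39.0, 45.0 and 93.5 CPM in HSA + SB/d5, 10.1, 29.8, 12.7 and 30.8 CPM in HSA/d5, and 22.4, 6.31, 16.2 and 42.2 CPM in HSA/d1. The HSA/d1 range thus enclosed HSA/d5 and overlapped HSA + SB/d5. FILIP1, which binds filamin A, was at 17.1 ± 5.91 CPM in HSA + SB/d5 and 6.60 ± 1.79 in HSA/d5. The matrix protein SNED1 was at 13.1 ± 2.68 and 5.63 ± 0.835 CPM, the matrix protein ABI3BP at 4.91 ± 1.23 and 0.953 ± 0.549 CPM and the membrane skeleton protein GYPC at 11.1 ± 1.88 and 4.77 ± 0.989 CPM. Sarcalumenin (SRL), a calcium-binding protein of the sarcoplasmic reticulum, was at 2.25 ± 0.525 and 0.559 ± 0.198 CPM.

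The 11 members with immune or other roles included RAB7B (ENSSSCG00000036352), a GTPase of endosome traffic. It had 13.5, 7.78, 7.57 and 8.78 CPM in HSA + SB/d5, 1.73, 2.25, 0.629 and 0.943 CPM in HSA/d5 and 1.05, 1.22, 1.11 and 0.915 CPM in HSA/d1. LGALS13 (ENSSSCG00000002983), a galectin, had 4.03, 1.74, 3.64 and 2.66 CPM in HSA + SB/d5 and 4 to 8 reads in each HSA/d5 library, and BTNL9, of the butyrophilin family, had 2.22, 1.23, 3.60 and 4.79 CPM and 2 to 12 reads. In these 3 genes HSA + SB/d5 was above both HSA groups without overlap.

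CLEC2B (ENSSSCG00000000656), a lectin-like receptor ligand of leukocytes, was the only member whose HSA + SB/d5 libraries all lay below HSA/d1, beside 10.3% of the genes compared. It had 9.68, 6.10, 7.79 and 9.10 CPM in HSA/d1, 1.41, 1.72, 2.02 and 1.47 CPM in HSA/d5 and 4.68, 3.89, 4.26 and 5.62 CPM in HSA + SB/d5. SLA-DMA, which loads peptides onto class II molecules, was at 2.46 ± 0.775 CPM in HSA + SB/d5 and 0.918 ± 0.246 CPM in HSA/d5. DCSTAMP, a fusion protein of osteoclasts and dendritic cells, had 0 to 2 reads per library in HSA/d5 and 4 to 50 in HSA + SB/d5.

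C1orf115 was at 36.7 ± 6.55 CPM in HSA + SB/d5 and 14 ± 3.93 CPM in HSA/d5, the galectin LGALS2 at 8.41 ± 4.49 and 2.20 ± 0.998 CPM, CRYBG2 at 6.17 ± 2.94 and 1.92 ± 0.608 CPM, TMT1B at 4.22 ± 1.85 and 0.999 ± 0.765 CPM and the zinc-finger gene ZBTB7C at 3.72 ± 0.995 and 1.22 ± 0.630 CPM. Of 13 tested immune cell markers only CD74, the invariant chain of class II molecules, passed both thresholds in HSA + SB against HSA, at a log2 fold change of 1.53 (SE 0.301, adjusted p = 0.00320 in edgeR). The summed level of that list ran from 59.5 to 138 CPM in HSA/d5 and from 110 to 142 CPM in HSA + SB/d5. The latter was higher in 4 of 4 libraries of the same number, although these numbers come from accession order alone. The part of immune cells in these values was not tested.

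Of the 10 members without a symbol, ENSSSCG00000002623 and ENSSSCG00000000675 had the highest CPM in HSA + SB/d5. ENSSSCG00000002623 was at 111.6, 157.3, 68.8 and 51.9 CPM there, at 26.0, 28.1, 24.7 and 17 CPM in HSA/d5 and at 41.3, 170.5, 81.5 and 79.5 CPM in HSA/d1. ENSSSCG00000000675 was at 50.2, 67.0, 48.2 and 64.9 CPM in HSA + SB/d5, at 17.9, 19.8, 12.9 and 21.7 CPM in HSA/d5 and at 9.77, 8.49, 21.9 and 24.2 CPM in HSA/d1. The first was thus higher at d1 than at d5 in HSA, in all libraries, and the second overlapped.

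The rule did not use HSA/d1 beyond the minimum level, and the members were compared with that group next. Because HSA/d5 libraries were required to lie below HSA + SB/d5, they were chosen low, and the count is to be read with that in mind. In edgeR 17 of the 63 members were lower in HSA/d5 than in HSA/d1, beside 2.22% of all genes tested. In the other direction 0 members passed both thresholds in edgeR, beside 6.7% of all genes. MGAM passed on the adjusted p alone (log2 fold change 0.79, SE 0.245, adjusted p = 0.0152), and it was also the only member higher at an unadjusted p under 0.05. Without overlap, 15 members lay below HSA/d1, beside 10.9% of the genes compared, and MGAM lay above, beside 19.4%. The Wald test of DESeq2 likewise called 0 members higher. The median log2 fold change of the members was -0.64, beside -0.01 for all genes, and 51 members were below 0.

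Those 17 were spread over the functional groups. They were 4 of the 10 vascular members (APOLD1, NOSTRIN, PPP1R16B and PTGIR), 4 of the 14 signalling members (ANGPTL7, CCL19, ITPKA and SEMA5B), 5 of the 12 of metabolism and transport (AFM, BEST4, NPC1L1, PNLIPRP1 and SFTPB), CLEC2B and ZBTB7C of the 11 with immune or other roles, 0 of the 6 of muscle, cytoskeleton and matrix, and 2 of the 10 without a symbol. SFTPB fell by 4.09 on the log2 scale (SE 0.349, adjusted p = 4.77e-07), AFM by 3.37 (SE 0.660, adjusted p = 0.000637), CLEC2B by 2.38 (SE 0.234, adjusted p = 1.19e-06) and PNLIPRP1 by 2.33 (SE 0.408, adjusted p = 0.000240). PPP1R16B fell by 1.33 (SE 0.228, adjusted p = 0.000194). SPHK1 passed on the adjusted p only, with a log2 fold change of -0.91 (SE 0.104, adjusted p = 4.86e-06). KDR at -0.10 (SE 0.200, adjusted p = 0.726) and INHBB at -0.32 (SE 0.272, adjusted p = 0.371) did not pass.

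For each of these 17 genes the HSA + SB/d5 mean was at least 50% of the HSA/d1 mean, and for 9 it was at least 100%. The lowest shares were 50.8% for PNLIPRP1 and 56.5% for CLEC2B, and PPP1R16B reached 105%, NOSTRIN 114%, SEMA5B 553% and CCL19 564%. Across all members, 38 had every HSA + SB/d5 library above every HSA/d1 library, beside 18.1% of the genes compared, and 29 passed both thresholds upwards in edgeR, beside 4.9%. RAB7B, MGAM, INHBB, PHGDH and NEURL1B were among the 29. Downwards PNLIPRP1 alone passed, with a log2 fold change of -1.05 (SE 0.389, adjusted p = 0.0437), beside 2.33% of all genes. The HSA + SB/d5 libraries were chosen high by the rule, so these counts describe the levels and support nothing further.

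**Figure D4:**
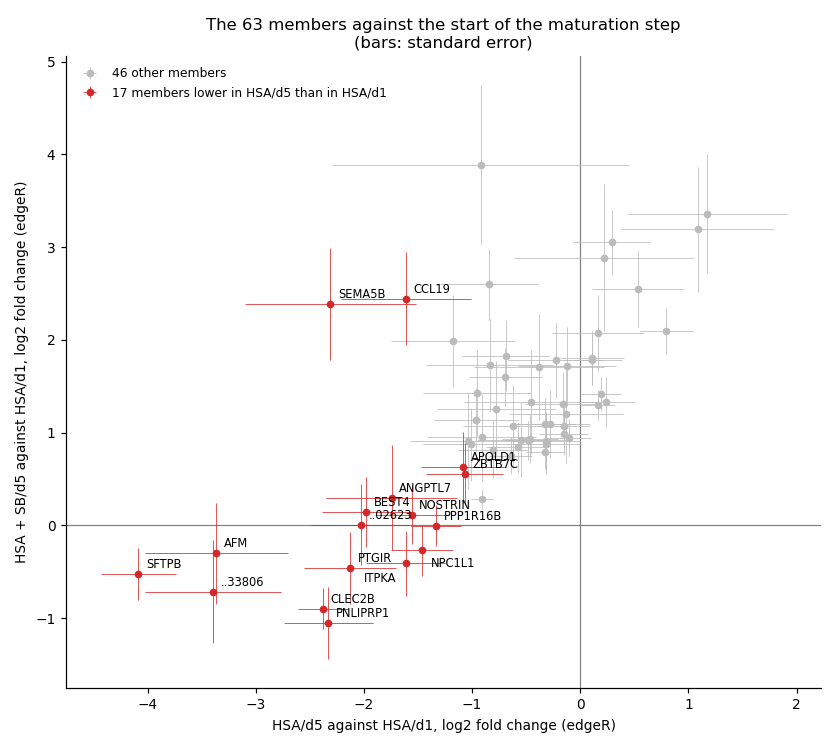
Log2 fold change of HSA/d5 against HSA/d1 (horizontal) and of HSA + SB/d5 against HSA/d1 (vertical) for the 63 members, with standard errors from edgeR. Both axes share the HSA/d1 libraries; the 17 members lower in HSA/d5 (red) lie mostly within 1 of 0 on the vertical axis, with SEMA5B and CCL19 above 2 and PNLIPRP1 lowest at -1.05.

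Fet-A/d5 was compared with HSA/d1 in the same way, with the rule holding Fet-A/d5 near HSA/d5 and both contrasts sharing the HSA/d1 libraries. Between Fet-A/d5 and HSA/d1, 21 members were lower, beside 5.01% of all genes, and 0 were higher in edgeR, beside 4.74%. PHGDH, at 0.64 (SE 0.158, adjusted p = 0.00262), and IRAK2, at 0.74 (SE 0.270, adjusted p = 0.0315), were higher on the adjusted p alone and were the 2 members with an unadjusted p under 0.05 in that direction, and DESeq2 called 0. Without overlap, 17 members lay below HSA/d1, beside 17.7% of the genes compared, and PHGDH lay above, beside 18.6%. SFTPB had a log2 fold change of -6.59 (SE 0.450, adjusted p = 3.08e-09) and AFM of -5.08 (SE 0.790, adjusted p = 3.29e-05).

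Directly against HSA/d5, 2 members passed both thresholds downwards under fetuin-A although the rule had kept them: SFTPB at -2.51 (SE 0.569, adjusted p = 0.00181) and CHRDL1 at -1.44 (SE 0.549, adjusted p = 0.0457), beside 6.29% of all genes. Both had a few reads per library, where the 0.5 CPM added in the rule shrinks the ratio. Over all members the edgeR log2 fold change of Fet-A/d5 against HSA/d5 ran from -2.51 to 1.62, with a median of -0.10. Members at low levels could thus differ more under fetuin-A than the ratio of the rule shows. PHGDH was higher at 0.47 (SE 0.157, adjusted p = 0.0230) and SLA-DMA lower at -0.89 (SE 0.315, adjusted p = 0.0321) on the adjusted p alone. All Fet-A/d5 libraries lay below all HSA/d5 libraries for AFM, BEST4 and SFTPB, beside 16.9% of the genes compared, and above for RXFP4, beside 12.2%. In HSA + SB/d5 against Fet-A/d5, 52 members had no overlap, beside 20.1%, and 56 passed both thresholds in edgeR, beside 6.79%, a direction that the rule fixes.

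LDN alone was compared with HSA next. Of 63 members 0 passed in edgeR for HSA + LDN/d5 against HSA/d5, as did 0% of all genes, and SFTPB was the only member with an unadjusted p under 0.05, at a log2 fold change of 1.64 (SE 0.366). Its 4 HSA + LDN/d5 libraries were above all 4 HSA/d5 libraries, beside 0.592% of the genes compared. The log2 fold change was above 0 for 55 members with a median of 0.20, in a comparison whose HSA/d5 libraries were chosen low by the rule. Against HSA/d1, 15 members were lower in HSA + LDN/d5, beside 2.42% of all genes, and MGAM was higher, beside 7.1%.

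On top of SB the addition of LDN likewise gave 0 members past the thresholds in edgeR, beside 0% of all genes. At an unadjusted p under 0.05 there were 6, all lower, among them CCL19, CLEC2B, NR0B2, RASL10A and SPHK1. The share of all genes at that p is not given here. The rule chose the HSA + SB/d5 libraries high, which favours lower values in this comparison, and 48 members were below 0. In CCL19 and SPHK1 every HSA + SB + LDN/d5 library lay below every HSA + SB/d5 library, beside 1.28% of the genes compared. CCL19 was at 4.68 ± 1.55 CPM with SB and 1.90 ± 0.375 CPM with both agents (log2 fold change -1.30, SE 0.473), and SPHK1 at 476.5 ± 63.4 and 361 ± 32.6 CPM (-0.40, SE 0.103). The interaction of SB with LDN passed for 0 members in edgeR, beside 0% of all genes. At an unadjusted p under 0.05 there were 3 members: SPHK1 at -0.56 (SE 0.146), SFTPB at -1.19 (SE 0.459) and CCL19 at -2.05 (SE 0.793). About 1 in 20 genes reach such a p by chance alone, and the share of all genes is not given here either. The interaction was below 0 in 60 members, the direction that the rule favours. The ratio of HSA + SB over HSA was the larger of the pair in 60 of the 63 members. The rule favoured this order, since its limits were 1 and 0.585 and only the first pair had to have separate libraries. Nothing is read from that count. The mean with both agents was 85.9% of the mean with SB at the median member, from 40.7% to 144%. This share too is lowered by a rule that chose the HSA + SB/d5 libraries high. Against HSA/d1, 22 members passed upwards with both agents, beside 5.56% of all genes, and CLEC2B passed downwards, beside 2.06%. In 23 members every library with both agents lay above every HSA/d1 library, beside 18.4% of the genes compared.

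Genes of the pathway that SB431542 blocks passed the thresholds more often downwards than upwards, in lists chosen with these results known. Of all genes tested, 0.916% passed upwards and 1.5% downwards in HSA + SB/d5 against HSA/d5. The rule used that contrast, so INHBB and CHRDL1 are given as a description. Of 15 tested ligands and ligand-binding genes, INHBB alone passed upwards in HSA + SB/d5 against HSA/d5 and 5 passed downwards, with a median log2 fold change of -0.67. INHBA, the other main activin subunit, fell by 3.37 on the log2 scale (SE 0.235, adjusted p = 1.71e-08), from 56.6 to 72.3 CPM in HSA/d5 to 3.58 to 9.92 CPM in HSA + SB/d5, while INHBB had a log2 fold change of 1.42 (SE 0.274). Of 20 receptors and SMADs 0 passed upwards in edgeR and 4 downwards, among them the inhibitory SMAD7 at -2.76 (SE 0.301, adjusted p = 8.96e-06) and the corepressor SKIL at -2.12 (SE 0.115, adjusted p = 4.31e-10). Of 22 TGF-β target genes 0 passed upwards and 7 downwards, with a median of -0.89. For both lists no gene was higher on the adjusted p alone.

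Of 22 tested genes of the BMP pathway, CHRDL1 passed upwards and BMPR1B, a BMP receptor, downwards at -1.94 (SE 0.523, adjusted p = 0.0273), and the median was -0.10. Of 63 members 59 belong to no list. Genes of endocrine hormones and of proliferation, with 8 and 15 tested, gave 0 calls in edgeR in either direction for HSA + SB against HSA. The adjusted p alone gave 0 as well. Their median log2 fold changes were -0.46 and 0.07, and 0 of the 8 and 12 of the 15 values were above 0. Of 13 tested endocrine transcription factors 1 passed downwards and 0 upwards, with a median of -0.17.

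The summed CPM of the 63 members fell into bands by group. It ran from 585 to 637 in HSA/d5, from 540 to 649 in Fet-A/d5, from 665 to 702 in HSA + LDN/d5, from 925 to 1069 in HSA/d1, from 1158 to 1408 in HSA + SB + LDN/d5 and from 1494 to 1641 in HSA + SB/d5. Of these bands, those of HSA/d5 and Fet-A/d5 overlapped and the others did not. The separation of the d5 groups by SB follows from the rule. Since the rule chose HSA/d5 low and HSA + SB/d5 high, it also favours their gaps to HSA/d1 and to the groups with LDN. SPHK1 takes the largest share of this sum, with means of 209.6 CPM in HSA/d5, 476.5 in HSA + SB/d5 and 361 in HSA + SB + LDN/d5. In the mean of the members' standardised log2 CPM, which weights genes equally, replicate 2 was the lowest library in 6 of 6 groups, at -0.37 in HSA/d1, -0.79 in HSA/d5, -1.05 in Fet-A/d5, 0.95 in HSA + SB/d5, -0.59 in HSA + LDN/d5 and 0.42 in HSA + SB + LDN/d5. Its distance was largest in the last of these, where the other 3 libraries were at 0.92 to 1.08.

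**Figure D5:**
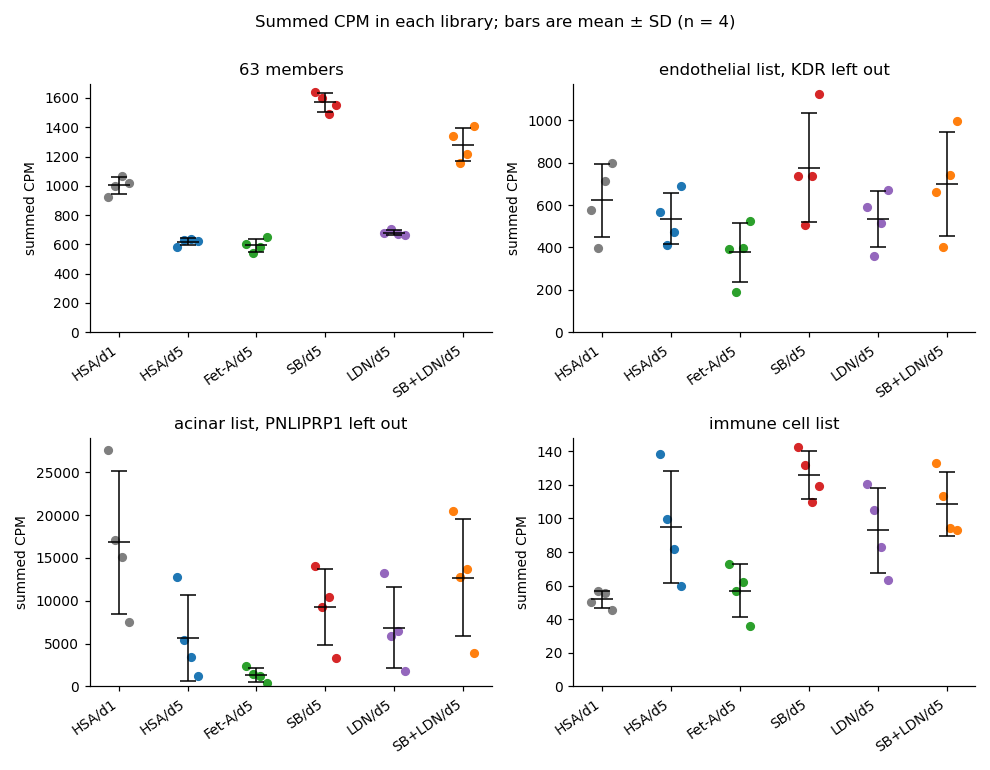
Summed CPM per library (points; bars are mean and SD of 4) for the 63 members and for the endothelial, acinar and immune marker lists with members left out. The members' sums form separate bands for HSA/d5, HSA/d1 and HSA + SB/d5, whereas the ranges of the 3 marker lists overlap between HSA/d5 and HSA + SB/d5, with the higher mean in HSA + SB/d5 for each.

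The 5 genes outside the set whose log2 CPM followed the members' mean most closely over the 24 libraries were EBF1 (Pearson's r = 0.93), RHOJ (0.93), PEAR1 (0.91), CPAMD8 (0.90) and ENSSSCG00000017181 (0.89). EBF1, an early B-cell and stromal transcription factor, was at 3.24 ± 1.38 CPM in HSA/d5 and 13.7 ± 3.99 CPM in HSA + SB/d5, and the endothelial GTPase RHOJ at 26.1 ± 1.09 and 46.5 ± 6.90 CPM. EBF1, PEAR1, CPAMD8 and ENSSSCG00000017181 lay outside the set by their fetuin-A ratio, between -1.89 and -0.73, and RHOJ by its HSA + SB ratio of 0.82. Libraries of a group share their treatment, so these values describe likeness only. Of the members 51 were matched by symbol to a position in RefSeq, and 0 pairs of them lay within 100 kb of each other.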

How the data were processed

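Strand-specific poly-A RNA libraries of NICCs in 6 groups were analysed, 24 in all. The labels list 30 samples because 6 libraries were sequenced in 2 runs. The values deposited by the authors are read counts for each gene, without normalisation, in 1 column for each library. Their processing notes name FastQC 0.11.8, Trim Galore 0.5, STAR 2.6.1, Picard, featureCounts 1.6.2 and DESeq2 1.22.1. The genome build, the annotation and the strand setting of the counting are not given in the sources used here, so overlapping and near-identical genes could share reads. Gene symbols were paired for 14857 of the 25880 identifiers. Totals ran from 18883734 to 24346119 reads, and no 2 libraries of the same group agreed within sampling noise.

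CPM was the count divided by the column total, and CPM is not scaled for gene length, so levels are compared within a gene. Tests used edgeR 4.0.16 in R 4.3.3 (quasi-likelihood, TMM, filterByExpr, 1 coefficient per group over all 24 libraries), with Benjamini-Hochberg adjustment over 14842 genes. Calls required an adjusted p below 0.05 together with a log2 fold change beyond 1 in either direction. The code was tested on simulated data. Alternatives used DESeq2 1.42.0, sva 3.50.0 and other filters, scalings and thresholds. Members and lists were chosen with earlier results of these data known. Named members are those on a list, the 20 with the highest mean CPM in HSA + SB/d5, the 10 with the largest HSA + SB ratio, the 5 largest and 5 smallest changes from d1, and those next to a limit of the rule; other members, the functional groups and single genes of the lists were chosen after their values were seen. Replicate numbers follow accession order and were not used as pairs in any test. Counts over libraries of the same number are given as descriptions only. Values of 2 members are not reported here singly, and both count in every total.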

Additional observations from a re-analysis of the deposited data

Results flagged for a closer look

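In groups of 4 libraries, a library was marked when its gap to the nearest other one was larger, as a share of the group's range, than Dixon's critical value. Of 186 groups examined over 30 members and the members' mean, 6 were marked, and chance alone marks about 1 in 20. KDR in Fet-A/d5 replicate 2 was at 31.1 CPM, with the others at 48.7 to 51.9. CHST1 in the same library was at 11.5 CPM, with the others at 20.5 to 22.0. MYH11 in Fet-A/d5 replicate 4 was at 39.3 CPM, with the others at 17.1 to 18.4, and RASL12 in that library at 6.83 CPM, with the others at 2.94 to 3.40. APOLD1 in HSA/d1 replicate 2 was at 8.71 CPM, with the others at 11.9 to 12.3. NEURL1B in HSA + SB + LDN/d5 replicate 2 was at 7.38 CPM, with the others at 12.7 to 13.4.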

How the results depend on the processing

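Membership depended on the settings of the rule. A minimum of 5 CPM gave 37 members, and leaving out each d5 library in turn gave 57 to 81, with 32 members kept under every left-out library. Adding 0.1 or 1 in place of 0.5 gave 55 and 53 members, of which 47 and 51 were among the 63. TMM library sizes gave 64, of which 62 were among the 63. Of the 17 members lower in HSA/d5 than in HSA/d1, 8 were called when 10 counts were required in every library, which drops genes near 0, and 5 when the fold change itself was tested against 1 (glmTreat); without single libraries the count was 12 to 16. The 21 members lower in Fet-A/d5 became 8 and 9, and 19 to 22. The 60 members past the thresholds in HSA + SB became 32 and 9, and 44 to 54. The 19 with both agents became 8 and 2, 10 with only the 2 groups compared, 48 with 3 surrogate variables and 30 with the Wald test of DESeq2, and 8 to 23 without single libraries: 9, 8 and 11 without HSA + LDN/d5 replicates 1, 2 and 4, and 10, 9 and 9 without HSA + SB + LDN/d5 replicates 1, 3 and 4. The cause of these moves was not tested. The log2 fold change of HSA/d5 against HSA/d1 changed sign in 7 named members, none of them called: with surrogate variables NEURL1B was at -0.0843 and ENSSSCG00000034469 at -0.26, and without single libraries RASL12 ran from -0.62 to 0.0636, GYPC from -0.31 to 0.0484, RAB7B from -0.0422 to 0.54, MYH11 from -0.44 to 0.37, ENSSSCG00000000675 from -0.10 to 0.35, NEURL1B from -0.077 to 0.29 and ENSSSCG00000034469 from -0.21 to 0.69. No paired analysis was possible because neither labels nor columns carry a replicate or preparation number, and numbers given in accession order do not pair libraries. Libraries of the same number still ranked alike, which is a hint from the data and not from the design: replicate 2 was lowest in the members' mean in 6 of 6 groups, and replicate 4 was lowest in the acinar sum and highest in the endothelial and neural sums in 6 of 6. How a block would change the calls was not tested. With about 21 reads per CPM, ratios of the 26 members under 1 CPM in HSA/d5 rest on few reads.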
